A study of Mus musculus with 285 samples.

Results

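The genes described here carry the insulin and insulin-like growth factor (IGF) signal in skeletal muscle. They are the growth factor Igf1, the receptors Insr and Igf1r, the docking proteins Irs1 and Irs2 and the glucose transporter Slc2a4, better known as GLUT4. They were chosen by symbol, and every probe that the platform table assigns to one of the symbols was used. Of the 7 genes sought, 6 were found, with 8 of the 23560 probes on the array, against 11622 named genes in the whole series. No probe with the symbol Pik3r1 was found, and that gene was not analysed here.

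Insulin and IGF1 bind related receptor tyrosine kinases, which phosphorylate the docking proteins IRS1 and IRS2. The docking proteins recruit phosphoinositide 3-kinase, and the kinase AKT downstream of it moves GLUT4 to the muscle surface, switches on protein synthesis through mTOR and keeps the FoxO transcription factors out of the nucleus. In fasted tissue, where insulin is low, FoxO factors are known to raise transcription of Irs2 and Insr. Muscle makes part of its own IGF1, and the liver supplies most of what circulates.

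RNA of skeletal muscle from 285 mice was hybridised, labelled with Cy3, against Cy5-labelled RNA of a pool made from equal portions of all samples. The mice were F2 animals of both sexes from crosses of C57BL/6J and C3H/HeJ in both directions, fed chow holding 4% fat until 8 weeks old, switched for 12 weeks to Western food (42% fat, 0.15% cholesterol), and killed at 20 weeks after fasting for 12 hours. Which muscle was taken, and each mouse's sex, genotype and cross direction, are not in the labels used here, so all mice formed 1 group, and every relation below is a relation across mice with no untreated, chow-fed or fed group beside it. Mouse numbers, from 51 to 362, were the only order used. Each value is a log2 ratio of mouse over pool, which gives no level, so genes cannot be ranked by abundance and muscle markers cannot be checked as levels.

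The docking protein genes are shown with the 250 bases upstream of their start sites, because both carry the same pair of short motifs. RefSeq promoter windows were found by symbol for 4 of the 6 measured genes, and the sequences below are in build GRCm38.p6. Irs1 lies on chromosome 1 and its upstream bases are chr1:82291440-82291689 on the minus strand. Irs2 lies on chromosome 8, with chr8:11008930-11009179 on the minus strand. Capitals mark CACGTG, the palindromic E-box read by several basic helix-loop-helix factors, and TGTTTTG, the insulin response sequence read by FoxO factors (searched as CAAAACA on both strands).
Irs1: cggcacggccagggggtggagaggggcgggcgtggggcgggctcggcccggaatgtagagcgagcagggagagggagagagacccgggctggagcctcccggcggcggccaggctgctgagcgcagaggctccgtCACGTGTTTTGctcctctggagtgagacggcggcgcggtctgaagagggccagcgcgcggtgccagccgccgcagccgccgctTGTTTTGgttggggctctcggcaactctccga
Irs2: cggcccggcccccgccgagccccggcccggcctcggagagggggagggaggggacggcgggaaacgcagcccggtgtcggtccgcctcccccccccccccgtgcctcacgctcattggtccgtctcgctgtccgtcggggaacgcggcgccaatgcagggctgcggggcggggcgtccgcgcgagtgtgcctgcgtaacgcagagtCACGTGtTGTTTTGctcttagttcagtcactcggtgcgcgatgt
In Irs1 the E-box starts at base -115 from the start site, and an insulin response sequence at -111 overlaps its end. A further TGTTTTG of Irs1 starts at -32. In Irs2 the CACGTG starts at -44 and the TGTTTTG at -37, with 1 base between them. Among 32851 RefSeq mouse promoter windows, 7.15% held CACGTG, 6.28% held CAAAACA on either strand and 0.408% held both. A CACGTG with TTTTG within 5 bases, a pattern written down after the matches in Irs1 and Irs2 had been seen, occurred in 28 windows (0.0852%). The other FoxO motif searched, GTAAACA, was found in 3.65% of windows and in neither Irs1 nor Irs2. The windows of Igf1 and Igf1r held none of these 3 motifs. A match shows the letters only and says nothing of binding.

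The series as a whole sets limits on every value. Within an array the SD of log2 ratios was 0.29 at the median and 0.17 to 0.60 between arrays, and pairs of arrays correlated at -0.745 to 0.801, with 2.48% of pairs below -0.3. The deposited values carry no stated base or sign. They were read as log10 of mouse over pool from their bounds of 2 and -2 (100-fold) and from the Y-linked genes Eif2s3y and Kdm5d, whose mean linear ratios were 0.796 and 0.942 read so and 23.2 and 3.43 with the sign turned. In base 2 all log2 values below would shrink by the same factor, with the sign turned highest and lowest would swap, and correlations would stay as they are. The files hold no intensities, so signal over background is unknown for every probe, and the number of arrays limits the precision. Muscle pieces are mixtures of cells, so fewer cells of a type and less RNA per cell cannot be told apart.

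Igf1 and Irs2 varied widely among the mice and Insr varied little, as did Igf1r on 1 of its probes. Igf1, the growth factor, was read by 1 probe (10024395947, chr10:87858265-87937047). Its log2 ratio was -1.08 in the lowest mouse (mouse 130), -0.04 at the median and 2.35 in the highest (mouse 292). The SD of 0.46 was larger than that of 91.4% of named probes. At least 2-fold above the pool were 6 mice and at least 2-fold below it 1 mouse, so the high side of Igf1 was the longer.

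The receptors stayed close to the pool. Insr, the insulin receptor (probe 10024403101, chr8:3150922-3279649), ran from -0.29 (mouse 332) over a median of -0.01 to 0.36 (mouse 95). Its SD of 0.11 was larger than that of only 3.43% of named probes. Igf1r, the IGF1 receptor (chr7:67952257-68233668), had a pair of probes. Probe a (10024409278) ran from -0.47 over -0.10 to 0.78 with an SD of 0.19, larger than that of 39.1% of named probes and than the 0.16 of Irs1. Probe b (10024414499) ran from -0.27 over 0.03 to 0.60 with an SD of 0.12, larger than that of 6.78%. No mouse was 2-fold from the pool for either receptor on any of these probes.

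The docking proteins differed from each other in spread. Irs1 (probe 10024416256, chr1:82233105-82291439) ran from -0.54 (mouse 63) over -0.06 to 0.37 (mouse 135), with an SD of 0.16. Irs2 (chr8:10984681-11008929) was read by probe a (10024407298), from -0.55 over 0.01 to 1.25 with an SD of 0.29, and by probe b (10024414179), from -1.22 (mouse 108) over 0.12 to 1.95 (mouse 266) with an SD of 0.64. Probe b placed 30 mice at least 2-fold above the pool and 5 at least 2-fold below, whereas probe a placed 1 mouse above and 0 below. The 95th percentile of mice stood 4.42-fold over the 5th on Irs2 probe b, 1.88-fold on probe a and 1.46-fold for Irs1. The same ratio was 2.43-fold for Igf1, below that of Irs2 probe b, while from lowest to highest mouse Igf1 spanned more than either Irs2 probe.

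Slc2a4, the transporter that insulin brings to the surface (probe 10024397076, chr11:69942286-69948216), ran from -1.32 (mouse 92) over -0.22 to 0.93 (mouse 134), with an SD of 0.30. At least 1.5-fold below the pool were 25 mice and at least 1.5-fold above it 5. In many mice the Slc2a4 value equalled that of another gene, Pebp1, to the last decimal kept, as in mice 56 (-0.6671) and 73 (0.3428). There the Slc2a4 value cannot be told apart from that of Pebp1, which limits what the spread and these counts say of Slc2a4. At the extremes the values differed, with Pebp1 at -1.1893 in mouse 92 and 1.2339 in mouse 134. No member formed separate clusters of mice under a normal mixture.

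**Figure D1:**
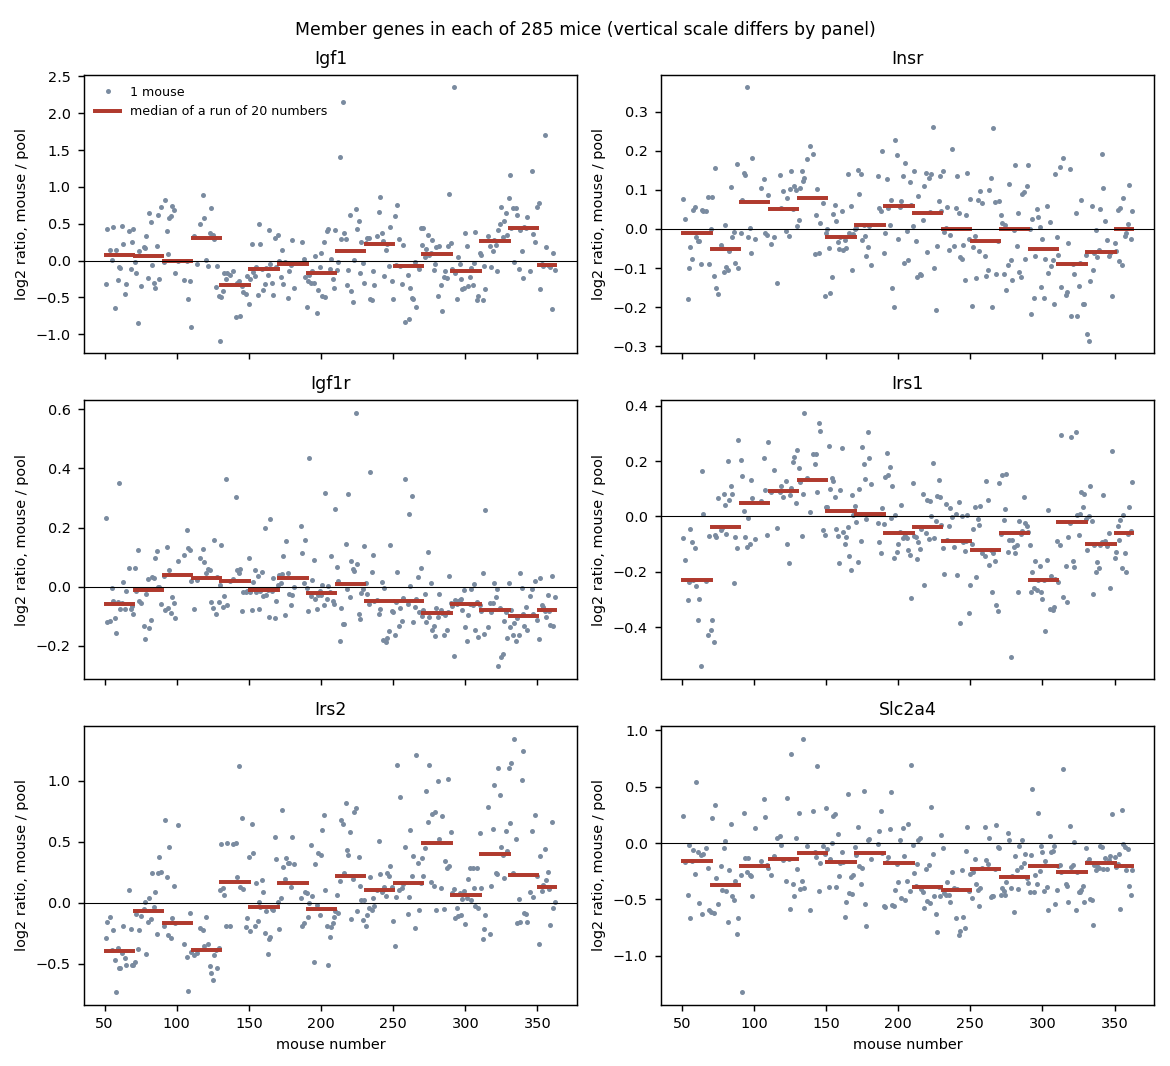
Each point is the log2 ratio of 1 mouse over the pool (vertical axis, scale differing by panel) against the mouse number (horizontal axis), for Igf1, Insr, Igf1r, Irs1, Irs2 and Slc2a4, with probes of a gene averaged. Red bars are medians over runs of 20 numbers, which for Irs1 reach 0.13 in numbers 131 to 150 and for Irs2 reach 0.49 in numbers 271 to 290.

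Probes of 1 gene did not always read alike. The Irs2 probes correlated over mice at r = 0.398 (rho = 0.367), above 60.5% of the 5067 same-gene probe pairs of the array, whose median r was 0.235. The Igf1r probes correlated at r = 0.155 and rho = 0.0316, above 42.5% of them. The 8 probes gave 28 pairs, tested by two-sided permutation of 100000 shuffles with Benjamini-Hochberg adjustment over the 28. Both same-gene pairs passed by r, with adjusted p of 4.00e-05 for Irs2 and 0.0186 for Igf1r. The rank correlation of the Igf1r pair did not pass (unadjusted permutation p = 0.594). Values of Igf1r below average the pair, and statements on it hold for that average unless a probe is named.

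All 6 genes passed a test of a course along the mouse number in the values as deposited, but on arrays scaled to the same spread Slc2a4 did not (adjusted p = 0.115, limma). A moderated F test (limma) of a curve with 4 degrees of freedom over 21512 features (named genes and unnamed probes) called 17579 of them (81.7%), so passing it does not set a gene apart. The curve held 25.2% of the variance of Irs1 (adjusted p = 6.22e-16) and 21.5% of that of Irs2 (adjusted p = 2.42e-13), against a median of 10.2% over all features. For Irs2 the share was 23.7% on probe b and 7.24% on probe a. Igf1r followed with 14.4% (adjusted p = 2.52e-08), Insr with 7.4% (4.61e-04), Igf1 with 5.56% (0.00389) and Slc2a4 with 4.4% (0.0166), the last 3 below the median feature.

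The courses differed between the docking proteins. Irs1 was lowest in mice 51 to 70 and 291 to 310, with a median of -0.23 in each run of numbers, and highest at 0.13 in mice 131 to 150. Irs2 had medians of -0.40 in mice 51 to 70 and -0.39 in mice 111 to 130 and stood at 0.49 in mice 271 to 290. Among the 142 higher-numbered mice alone, Irs2 did not pass this test (adjusted p = 0.657, limma). Igf1 had its lowest run median, -0.33, in mice 131 to 150, where no mouse exceeded -0.14, and its highest, 0.44, in mice 331 to 350. What the numbers stand for (birth, killing, hybridisation or something else) is not given in the labels, so number and biology cannot be told apart. Mice 51 to 90 and 271 to 310 (76 mice) are treated apart below, because earlier results on these data showed low slow fibre genes in them.

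The 6 genes gave 15 pairs, tested by two-sided permutation of 100000 shuffles and adjusted over the 15; the smallest unadjusted p that the shuffles can give is 1.00e-05. By r, 9 pairs passed an adjusted p of 0.05. Shuffling treats mice as exchangeable, which the course along the number shows they are not, so values within lower and higher numbers stand beside the pooled ones.

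The docking proteins Irs1 and Irs2 rose together weakly over all mice (r = 0.175, rho = 0.146, adjusted p = 0.00679) and more closely within each block of numbers. Among the 143 lower-numbered mice r was 0.3 and among the 142 higher-numbered 0.332. With the course along the number removed r was 0.298, and with the first 5 array-wide components removed 0.375. The relation depended on the probe and on the mice. Irs1 correlated with Irs2 probe a at r = 0.391 (adjusted p = 4.00e-05, permutation over 28 probe pairs) and with probe b at r = 0.042, which did not pass (adjusted p = 0.535). Outside the runs 51 to 90 and 271 to 310 the pooled r was 0.0941 over 209 mice and did not pass (adjusted p = 0.197).

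Among the positive relations, those of the receptors and the transporter had the highest r. Every relation of Slc2a4 to another member includes the many mice in which its value equalled that of Pebp1. In those mice the relation cannot be told apart from one of Pebp1, and no pair was tested without them. Slc2a4 and Igf1r rose together at r = 0.422 (rho = 0.383, adjusted p = 5.00e-05), at 0.535 in lower numbers and 0.253 in higher ones. Probe a of Igf1r gave 0.447 with Slc2a4 and probe b 0.134. Insr and Igf1r, the related receptors, rose together at r = 0.383 (rho = 0.359, adjusted p = 5.00e-05), at 0.359 and 0.354 in the lower and higher numbers, and here the Igf1r probes were alike at 0.292 and 0.305. Insr and Slc2a4 reached r = 0.198 (rho = 0.189, adjusted p = 0.00237). These 3 relations did not stand with the first 5 array-wide components removed, where Slc2a4 and Igf1r were at -0.0499 (adjusted p = 0.462), Insr and Igf1r at 0.0837 (adjusted p = 0.241) and Insr and Slc2a4, now of the opposite sign, at -0.172 (adjusted p = 0.0254).

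The growth factor ran against both receptors. Igf1 and Igf1r correlated at r = -0.289 (rho = -0.295, adjusted p = 1.12e-04), at -0.272 and -0.263 in the lower and higher numbers. On the Igf1r probes r was -0.158 for a and -0.33 for b, both past the threshold over the probe pairs (adjusted p = 0.0178 and 4.00e-05). In the lower and higher numbers probe a gave -0.236 and 0.00266, and probe b -0.199 and -0.452. Igf1 and Insr correlated at r = -0.263 (rho = -0.257, adjusted p = 5.00e-05), at -0.201 and -0.282 in the lower and higher numbers. Over all mice, those with more Igf1 RNA therefore had slightly less RNA of both receptors, within the narrow range of the receptors. For Igf1r probe a this did not hold among the higher numbers. After removal of 5 components the values were -0.109 (adjusted p = 0.118) and -0.136 (adjusted p = 0.0556), which do not pass.

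The remaining passing pairs were weak. Irs1 reached r = 0.193 with Igf1r (rho = 0.227, adjusted p = 0.00257), with 0.279 on Igf1r probe a and -0.0578 on probe b. Irs1 reached r = 0.131 with Insr (rho = 0.138, adjusted p = 0.0457), and Irs2 reached r = -0.137 with Slc2a4 (rho = -0.117, adjusted p = 0.0399). The rho of Irs2 with Slc2a4 did not pass (adjusted p = 0.0669), and none of these 3 relations passed within the lower or within the higher numbers. Dropping the 2 mice whose value of the first gene lay farthest from its median moved the r of the 9 pairs only slightly, for example from 0.422 to 0.4 for Slc2a4 and Igf1r and from -0.289 to -0.266 for Igf1 and Igf1r. The 6 other pairs, among them Irs1 with Slc2a4 (r = -0.00777) and Irs2 with Igf1 (r = 0.119, adjusted p = 0.0609), did not pass.

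**Figure D2:**
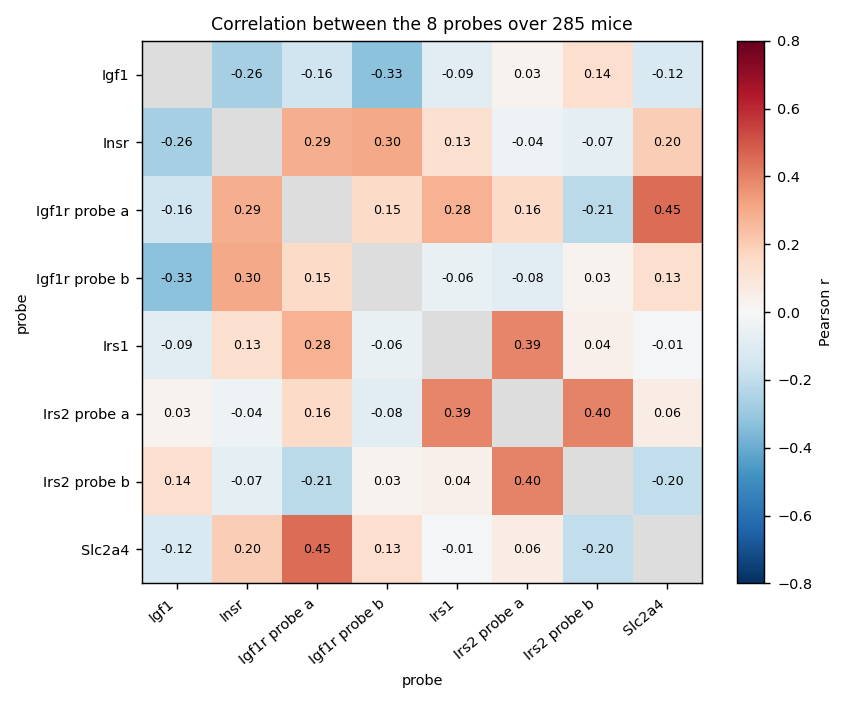
Each cell is the Pearson r over 285 mice between a pair of the 8 probes, blue below 0 and red above. Irs2 probe a and Irs1 stand at 0.39 while Irs2 probe b and Irs1 stand at 0.04, and Igf1 is negative with Insr and with both Igf1r probes.

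Genes following a member were those whose limma fit on the member had an adjusted p under 0.05 and whose r was at least 0.3 in size, over 21511 other features. Irs1 had 630 rising with it (2.93%) and 363 falling (1.69%), and Irs2 853 rising (3.97%) and 939 falling (4.37%). Igf1 had 1133 rising (5.27%) and 360 falling (1.67%). Insr had 2380 rising (11.1%) and 1106 falling (5.14%), Slc2a4 4661 (21.7%) and 3289 (15.3%), and Igf1r 5812 (27%) and 3698 (17.2%). The last 3 thus moved with a large part of the array, and counts of pathway genes are read against these percentages.

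Once 5 components were removed the counts were 154 for Irs1, 616 for Irs2, 70 for Insr, 261 for Slc2a4, 1172 for Igf1 and 2589 for Igf1r, rising and falling together. These components held 63.4% of the variance of Igf1r, 59% of that of Slc2a4 and 31.4% of that of Irs1. For Irs2 the share was 27.6%, for Insr 25.3% and for Igf1 20.7%. For Igf1 the rising count went from 1133 to 691 and the falling count from 360 to 481, and for Insr from 2380 to 65 and from 1106 to 5.

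**Figure D3:**
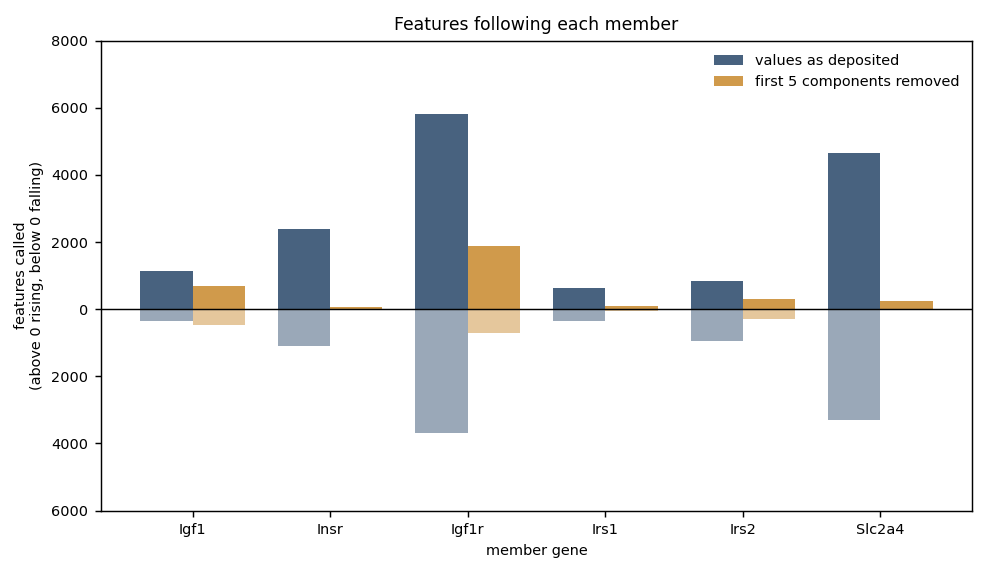
Bars count the features that rose (above 0) or fell (below 0, paler) with each member over 285 mice, for values as deposited (blue) and with the first 5 array-wide components removed (orange). Igf1r stands at 5812 rising before and 1876 after, and Igf1 at 1133 and 691.

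The 5 genes most like Igf1 were Trf, which encodes the iron carrier transferrin, Cfb, complement factor B, Apoe, the lipid carrier, the peroxisomal thiolase Acaa1b and the aldo-keto reductase Akr1c13. Trf ran from -1.47 over -0.00 to 3.53 and correlated with Igf1 at r = 0.745 (rho = 0.669, adjusted p = 3.40e-48, limma). Per SD of Igf1, Trf was higher by 0.49 ± 0.03 (SE) on the log2 scale. Cfb reached 0.702, Apoe 0.696, Acaa1b 0.694 and Akr1c13 0.677, and all 5 held at 0.668 or more in both number blocks. Against Igf1 ran Olfr1348 (-0.43), Lcn4 (-0.418) and Ttyh2 (-0.405).

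The 4 mice with the most Igf1 RNA were also the 4 highest in hepatocyte genes. These mice, numbers 292, 215, 355 and 213 with log2 ratios of 2.35, 2.15, 1.71 and 1.40, had means over 11 hepatocyte genes of 4.29, 4.22, 3.64 and 3.49 against a series median of -0.42. The next mice in Igf1, 346 at 1.22 and 331 at 1.17, had hepatocyte means of -0.49 and -0.07. The next mice in hepatocyte mean, 52, 101 and 233 at 2.51, 2.27 and 2.03, had Igf1 ratios of 0.43, -0.00 and 0.30, which rank 48, 131 and 76 from the highest. The part of liver RNA in the Igf1 values was not tested. Over all mice 5 of the 11 hepatocyte genes rose with Igf1 and 0 fell, with a median r of 0.292 against -0.0611 over all features, led by Hpx (0.443), Cyp2e1 (0.426) and Tat (0.425). Without the 7 mice whose hepatocyte mean was at least 2, a limit chosen after seeing the data, 0 of 11 rose (limma, 2 of 11 at an unadjusted p under 0.05) and the median r was 0.0489. The list means ran from -1.09 to 4.29 over the mice. Albumin was not among the measured genes of the list.

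The relation of Igf1 to Igfbp1 and Igfbp2 rested on these mice, and that to Igfbp7 did not. Igfbp1 and Igfbp2, secreted carriers of IGF1, rose with Igf1 at r = 0.407 and 0.363, but their rank correlations were -0.0251 and -0.00757, and without the 7 mice r was 0.0172 and -0.0478. Igfbp7 reached 0.349 over all mice and 0.423 without them. Of 25 measured genes of the IGF and growth hormone axis 3 rose with Igf1 and 0 fell over all mice, and 1 rose without the 7.

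Genes of macrophages and matrix followed Igf1 more broadly once those mice were left out. Of 15 macrophage genes 8 rose with Igf1 and 0 fell (median r 0.321), and 10 rose without the 7 mice (median r 0.377). Csf1r, the receptor for the macrophage growth factor CSF1, stood at r = 0.46 over all mice and 0.543 without the 7, the Fc receptor chain Fcer1g at 0.449 and 0.538, and the protease Ctss at 0.409 and 0.513. Of 15 matrix fibroblast genes 4 rose and 0 fell over all mice (median r 0.244), and 7 rose without the 7 (median r 0.296). Both lists followed Igf1 more in lower than in higher numbers. In lower numbers 10 macrophage genes (median r 0.443) and 10 matrix genes (0.367) rose, and in higher numbers 3 (0.242) and 2 (0.0525). With 5 components removed 5 macrophage genes (0.17) and 2 matrix genes (0.0378) rose. Sparc, a matrix-binding glycoprotein, reached 0.467 and 0.572. The mean over the macrophage list ran from -0.86 to 0.84 over the mice and that over the matrix list from -0.61 to 0.78, and their part in the Igf1 range was not tested. The 5 closest followers Trf, Cfb, Apoe, Acaa1b and Akr1c13 stood at 0.678, 0.672, 0.633, 0.601 and 0.555 without the 7 mice.

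The pathway lists downstream stand beside the whole array, where 5.27% of features rose and 1.67% fell with Igf1. No list count here was tested against these shares. Under the call rule (limma) 0 rose and 0 fell of 29 insulin receptor cascade genes, 17 mTOR arm genes and 22 genes listed as FoxO factors and targets. Their medians were -0.00656, -0.0699 and -0.0725. At an unadjusted p under 0.05 and no limit on r, 4, 1 and 1 had a positive r and 7, 6 and 6 a negative one. Of 21 genes of glucose uptake and GLUT4 traffic 0 rose and 1 fell. Of 14 clock genes 0 rose and 3 fell, among them Nr1d2, a repressor of the clock loop, at -0.381.

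Irs2 rose with immediate early genes, which are transcribed within minutes of a stimulus. The genes most like it were Csrnp1, Btg2, Ccnl1, Slc20a1 and Nr4a2. Btg2, an antiproliferative early gene, ran from -2.04 over -0.01 to 2.87 and correlated with Irs2 at r = 0.778 (rho = 0.787, adjusted p = 1.65e-55, limma). It stood at 0.784 in the lower and 0.717 in the higher numbers and at 0.731 with 5 components removed. Csrnp1, a nuclear factor induced by AXIN1, reached 0.78, the cyclin Ccnl1 0.757, the phosphate transporter Slc20a1 0.742 and the orphan nuclear receptor Nr4a2 0.71. Both Irs2 probes showed the relation to Btg2, at 0.559 for a and 0.72 for b. Probe a alone was most like Adamtsl2 (0.612), Hdc (0.602), Ercc5 (0.59) and Nfkbia (0.583), and probe b alone like Csrnp1 (0.749), Ccnl1 (0.748) and Slc20a1 (0.726). Falling as Irs2 rose were Pou4f1 (-0.621), ZNF551 (-0.567) and Alkbh7 (-0.55).

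Of 16 immediate early genes 12 rose with Irs2 and 0 fell, with a median r of 0.41 against -0.0299 over all features. The RNA-destabilising factor Zfp36 reached 0.699 and the zinc finger factor Klf4 0.589. The count was 9 in the lower numbers, 11 in the higher and 11 with 5 components removed. Among the 76 mice of the runs 51 to 90 and 271 to 310, 14 rose and 1 fell, and outside them 12 rose and 0 fell. The share of all features differed too, with 10.8% rising and 15.3% falling inside the runs and 3.18% and 3.05% outside. The count depended on the probe: 6 of 16 rose with Irs2 probe a (median r 0.202) and 12 with probe b (median r 0.399).

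Part of a list drawn up as FoxO factors and muscle targets rose with Irs2. As written the list also holds the glucocorticoid receptor gene Nr3c1, so it does not single out FoxO, and FoxO activity was not measured. Of its 22 measured genes 7 rose and 0 fell (median r 0.23). They were led by the cell cycle inhibitor Cdkn1a (0.583), the factor Cebpd (0.52) and the clock gene Per1 (0.505), which the clock list holds too. In the lower numbers 5 rose, in the higher 3, and with 5 components removed 2. With Irs2 probe a 2 of 22 rose (median r 0.0642) and with probe b 9 (median r 0.219). Ppargc1a, the coactivator of mitochondrial biogenesis and a gene induced by fasting in liver and by activity in muscle, reached 0.562 over all mice and 0.386 with 5 components removed. It was the only riser among 21 genes of glucose uptake and GLUT4 traffic, where the syntaxin gene Stx4a was the only one that fell (-0.381, and -0.0248 with 5 components removed).

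Counts of other pathway genes with Irs2 were not tested against the shares of all features, of which 3.97% rose and 4.37% fell. Of 29 insulin receptor cascade genes 0 rose and 0 fell (limma, median r 0.0155), with 7 at a positive and 5 at a negative r at an unadjusted p under 0.05. Of 25 IGF axis genes 2 rose and 0 fell, Htra1 (0.522), a protease that cleaves IGF-binding proteins, and Igfbp3 (0.328). Of 17 mTOR arm genes 2 rose and 0 fell, Mtor (0.353) and the stress sensor Sesn1 (0.313). By probe, 1.73% of all features rose and 1.72% fell on a, and 5.93% and 7.71% on b. Cascade genes gave 0 rising and 0 falling on a (limma, 4 positive and 11 negative at an unadjusted p under 0.05) and 3 and 1 on b. IGF axis genes gave 3 rising and 2 falling on a and 2 and 0 on b, and mTOR arm genes 1 rising on a and 4 on b. The glycolytic regulator Pfkfb3 stood at 0.424 over all mice and at 0.55 with 5 components removed.

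Irs1 rose with slow fibre genes over all mice, and the count depended on the runs of mice where these genes were low. Of 11 slow fibre genes 10 rose with Irs1 and 0 fell (median r 0.385 against 0.0217 over all features). Inside the runs 51 to 90 and 271 to 310 9 rose (median 0.449), and outside them 0 rose and 0 fell (limma, median 0.17), with 6 at a positive r at an unadjusted p under 0.05. The mean over the list ran from -2.77 to 1.03. Myl2, the slow myosin light chain, correlated with Irs1 at 0.589 inside the runs and 0.255 outside. The slow troponins Tnnc1 and Tnnt1 stood at 0.551 and 0.537 inside and 0.269 and 0.249 outside. These 3 genes fall into separate clusters of mice, so no r over all mice is given for them. Without the 5 components 5 of the 11 rose.

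Other genes followed Irs1 less closely than the best partners of Irs2. Ina, a neuronal intermediate filament, reached r = 0.5 (rho = 0.47, adjusted p = 1.20e-15, limma), at 0.602 in the lower and 0.241 in the higher numbers. Tinag reached 0.498. Falling as Irs1 rose were Tiam1, an activator of the small GTPase RAC1 (-0.501), B4galnt4 (-0.499) and Abcg4 (-0.492). Among all features 2.93% rose and 1.69% fell with Irs1, and no list count was tested against these shares. Of the insulin receptor cascade 2 of 29 genes rose, the inhibitory adaptors Grb10 (0.356) and Grb14 (0.323), and 2 fell, among them the adaptor Sh2b1 (-0.348). Without the 5 components 0 of the 29 rose and 0 fell (limma, 5 and 1 at an unadjusted p under 0.05). In that setting only 0.479% of all features rose and 0.237% fell. Of 25 IGF axis genes 1 rose, Socs2 (0.319), and 1 fell, Igfbp5 (-0.343).

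**Figure D4:**
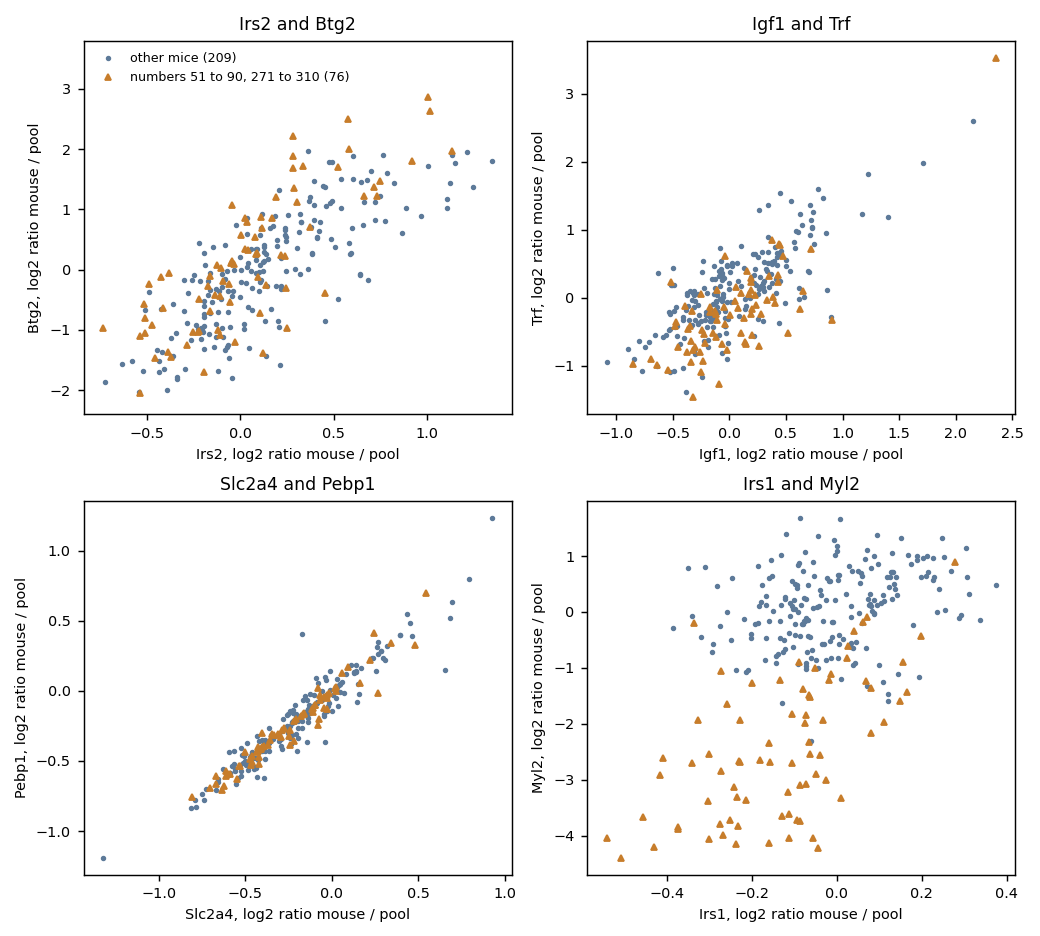
Each point is 1 of 285 mice, with the log2 ratio over the pool of a member (horizontal) and of a gene that follows it (vertical), triangles for the 76 mice numbered 51 to 90 or 271 to 310. Btg2 follows Irs2 in both groups of mice (0.804 inside the runs, 0.788 outside), 4 mice lie far to the right in Igf1, Pebp1 tracks Slc2a4 along a line, and Myl2 is low mostly in triangles.

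Slc2a4 moved almost in step with probes of genes of many roles. Pebp1, an inhibitor of RAF kinase, ran from -1.19 over -0.25 to 1.23 and correlated with Slc2a4 at r = 0.959 (rho = 0.962, adjusted p = 6.64e-152, limma). It stood at 0.967 and 0.942 in the lower and higher numbers and 0.904 with 5 components removed. The ribosomal gene Rpl14 reached 0.941, the lysosomal Lamp1 0.937, the Krebs cycle subunit Idh3b 0.934 and the ATP synthase subunit Atp5e 0.928. Fast fibre genes joined them: of 5 measured, 4 rose with Slc2a4 and 1 fell, with the fast light chain Mylpf at 0.915, the calcium buffer Pvalb at 0.863 and the fast troponin Tnnc2 at 0.672. Of 5 oxidative phosphorylation genes 3 rose, led by Cox5b at 0.857. Pdk4, the kinase that spares glucose by blocking pyruvate dehydrogenase, stood at 0.863 over all mice and 0.723 with 5 components removed. The stress-induced factor Cebpb stood at 0.904 and 0.827. Mylpf, Pvalb, Cox5b, Pdk4 and Cebpb were read by probes of the group at r of at least 0.8 described next. Their relations therefore do not set fast fibres, respiration or glucose sparing apart from the genes of other roles in it.

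Other probes of the same genes often read differently. At a limit of r = 0.8, set after seeing the data, 70 probes rose with Slc2a4, 44 of them named, for 40 genes. Their SDs lay between 0.23 and 0.35 and their slopes on Slc2a4 between 0.64 and 1.06. For 17 of the 40 genes the array holds further probes, 71 in all, which by construction lie below 0.8. Their r with Slc2a4 had a median of -0.0473 and ran from -0.559 to 0.777, and 39 lay below 0. For the glycolytic gene Pkm 1 probe reached 0.925 while others ran from -0.559 to 0.407. For the tubulin gene Tuba4a 1 probe reached 0.957 while the others stood at -0.418 and -0.414. Slc2a4 has 1 probe, so the same comparison cannot be made for it. In many mice Slc2a4 and Pebp1 held the same log2 ratio to the last decimal kept. Among them were mice 56 (-0.6671), 57 (-0.1579), 73 (0.3428) and 107 (0.3961). In these mice the value of Slc2a4 cannot be told apart from that of Pebp1. In other mice the values differed, as in mouse 192 (-0.1722 for Slc2a4 and 0.4033 for Pebp1). Why values were equal, and what the 70 probes share besides the correlation, was not tested.

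Pathway genes moved with Slc2a4 in both directions, as did the whole array, where 21.7% of features rose and 15.3% fell. No count below was tested against these shares. Of 29 insulin receptor cascade genes 4 rose and 8 fell, with Cbl at 0.548, Sh2b2 at 0.538 and the phosphatase Phlpp1 at -0.518. Without the 5 components these 3 stood at -0.0284, 0.0231 and -0.0214, and 0 of the 29 rose or fell (limma, 0 and 3 at an unadjusted p under 0.05). In that setting only 1.15% of all features rose and 0.0651% fell. Of 21 GLUT4 traffic genes 2 rose, Pdk4 and the MEF2 family factor gene Mef2d (0.668, and 0.0795 with 5 components removed), and 3 fell, among them the vesicle protein Vamp3 (-0.479). Of 22 genes of the FoxO list 4 rose and 5 fell. Falling most as Slc2a4 rose were Trappc1 (-0.7), Gopc (-0.68) and Fbxo28 (-0.655).

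The receptors followed patterns spread over the whole array. Igf1r was most like Tbc1d22b (r = 0.895, rho = 0.821, adjusted p = 2.89e-95, limma), Olfr464, Lcn10, Olfr1232 (each 0.883) and Hif3a (0.882). Olfr464 and Olfr1232 are olfactory receptor genes, known from the nasal epithelium. Of 263 olfactory receptor genes, a list added after these names were seen, 105 rose with Igf1r and 8 fell (median r 0.205 against 0.0153 over all features), 45 rose with Insr and 0 fell, and 67 rose with Slc2a4 and 5 fell. Of all features 27% rose and 17.2% fell with Igf1r, 11.1% and 5.14% with Insr, and 21.7% and 15.3% with Slc2a4. With Irs1 1 of the 263 rose and 0 fell, with Irs2 0 rose and 2 fell, and with Igf1 0 rose and 9 fell. Whether the Igf1r probes lie near background could not be tested without intensities.

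The Igf1r probes had different partners. Probe a alone was most like Rp1 (0.891), a photoreceptor gene, and Fstl3 (0.874), and probe b alone like Trpt1 (0.816), H2-M1 (0.811) and Kcnh8 (0.804). No gene was among the 5 most alike of both. Of 106 genes with a probe at r of at least 0.8 with probe a, 30 had 40 further probes, with a median r of 0.169.

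Genes of the cascade moved in both directions with the Igf1r average and with probe a, and with probe b the falling side was not called. Over all features 27% rose and 17.2% fell with the average, and no list count was tested against these shares. Of 29 cascade genes 5 rose and 12 fell (median r -0.206), with the adaptors Sh2b2 at 0.684 and Shc1 at 0.649 and the kinase Akt2 at 0.572. Probe a gave 5 rising and 14 falling (median r -0.264), and probe b 2 rising and 0 falling (median r 0.021; limma, 7 negative at an unadjusted p under 0.05). With 5 components removed 2 rose and 0 fell on the average, where 8.72% of all features rose and 3.31% fell. Of 25 IGF axis genes 1 rose and 7 fell, with Igfbp7 at -0.506, the activin antagonist Fst at -0.497 and Igfbp3 at -0.48. Probe a gave 1 rising and 6 falling, and probe b 0 of each (limma, 1 positive and 10 negative at an unadjusted p under 0.05). Of 17 mTOR arm genes 3 rose and 2 fell, led by the mTOR partner Mlst8 at 0.794. Of 15 matrix fibroblast genes 0 rose and 9 fell (median r -0.319), and of 10 tendon genes 0 rose and 7 fell (median r -0.352), and the part of connective tissue RNA in the Igf1r values was not tested. Probe a alone gave 1 rising and 7 falling matrix genes and 0 and 7 tendon genes. Probe b gave 0 and 0 matrix genes (median r -0.175) and 1 and 0 tendon genes (median r -0.171), with 10 and 7 negative at an unadjusted p under 0.05 (limma). The mean over the tendon list ran from -1.28 to 1.70. After removal of 5 components 2 matrix and 0 tendon genes rose with the average and 0 fell in either list (limma, 7 and 1 positive and 0 negative at an unadjusted p under 0.05).

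Insr was most like Rin1 (r = 0.571, rho = 0.569, adjusted p = 1.84e-22, limma), a RAB5 activator that acts in receptor uptake. It stood at 0.537 and 0.587 in the lower and higher numbers and 0.411 with 5 components removed. Slc6a18 (0.551), Slc6a21 (0.55), TAF4 (0.547) and Gpr176 (0.539) followed, TAF4 being the platform table's spelling. Over all features 11.1% rose and 5.14% fell with Insr, and no list count was tested against these shares. Of 29 cascade genes 4 rose with Insr and 3 fell, with the ubiquitin ligase Cbl at 0.409, Akt2 at 0.385 and the RAS activator Sos1 at 0.361. Of 17 mTOR arm genes 2 rose, Tsc1 (0.368) and Mlst8 (0.336), and 0 fell. Of 22 genes of the FoxO list 1 rose and 2 fell, and of 25 IGF axis genes 0 rose and 2 fell, Igfbp7 (-0.345) and Igfbp3 (-0.334). After removal of 5 components 0 genes of these 4 lists rose or fell with Insr (limma). In that setting only 0.302% of all features rose and 0.0232% fell. At an unadjusted p under 0.05, 9, 2, 3 and 5 genes of the cascade, mTOR, FoxO and IGF axis lists then had a positive r and 4, 3, 2 and 5 a negative one.

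**Figure D5:**
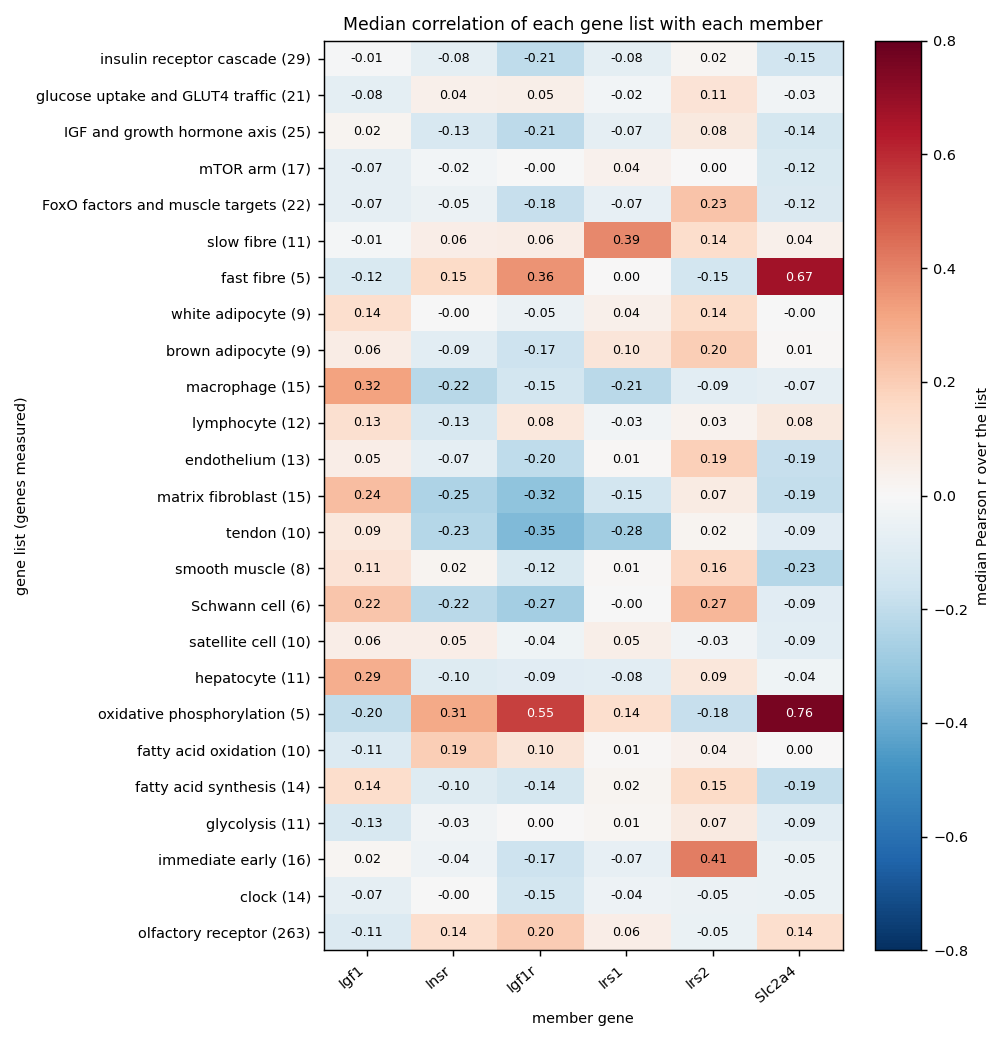
Each cell is the median Pearson r over 285 mice between a member (columns) and the measured genes of a list (rows, number measured in brackets). Slow fibre genes stand out with Irs1 (0.39), immediate early genes with Irs2 (0.41), macrophage and hepatocyte genes with Igf1 (0.32 and 0.29), and fast fibre and oxidative phosphorylation genes with Slc2a4 (0.67 and 0.76). The last 2 lists hold Mylpf, Pvalb and Cox5b, whose probes are among the 70 that moved almost in step with Slc2a4.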

How the data were processed

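The platform table and the authors' deposited value table of 285 arrays were used. The authors' deposited table was taken to hold log10 ratios, mouse (Cy3) over pool (Cy5), here turned into log2; its array medians lay between -0.0222 and 0.0173. Base, sign, background correction and dye normalization are not given in the sources used here. Per the labels each array is a separate mouse. The genes and lists were chosen with earlier results of these data known.

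Kept were 23510 probes measured on 80% or more of the arrays, with missing entries (0.0972%) at the probe mean. The platform table gives 13653 probes 1 symbol, 48 several and 9859 none; Entrez identifiers matched 12650 to RefSeq and changed 0 symbols. Averaging same-symbol probes gave 11622 genes, which with 9890 unnamed probes make 21512 features.

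Followers of a gene were found with limma 3.58.1 (R 4.3.3; lmFit, eBayes, Benjamini-Hochberg adjusted p under 0.05, r of at least 0.3 in size), checked on simulated data. Pairs were permuted with numpy 2.4.6. The course along the number was a natural spline with 4 degrees of freedom. Named are, per gene, the 5 highest and 3 lowest r among followers of 1 sign in both number blocks, and up to 3 per list. Alternatives were equal array spread, 5 outlying arrays left out, subsets of mice, the spline or 5 principal components removed, other probes and an r limit of 0.4. The design assumed 7 measured genes and all their pairs; 6 genes and 15 pairs could be measured.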

Additional observations from a re-analysis of the deposited data

How the results depend on the processing

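No paired analysis was possible because all mice form 1 group and the labels pair no samples. Over pairs, counts and trends, 196 values stayed on the same side of the threshold (counts: within 1.5 times). Among these are pairs whose r changed sign while passing in neither setting, and trends have no direction. Of the others 37 were weaker, 8 stronger, 29 counts moved and 2 pairs reversed. Of values for single genes 454 were the same, 26 weaker and 0 reversed. The cause of these changes was not tested. The settings inside the runs, each probe alone and without 7 mice of high hepatocyte level were chosen after seeing the data, and the runs came from earlier results on slow fibre genes.

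For pairs, scaling arrays gave r = -0.0813 for Irs2 with Slc2a4. Without 5 outlying arrays Irs2 with Igf1 stood at 0.125 and Slc2a4 with Igf1 at -0.137, both now past the threshold. In the 143 lower-numbered mice Irs1 stood at 0.0908 with Insr, -0.195 with Igf1 (now past) and 0.13 with Igf1r, and Irs2 at -0.14 with Slc2a4. In the 142 higher-numbered mice Irs1 stood at 0.0876 with Insr and 0.142 with Igf1r, and Slc2a4 at -0.00314 with Irs2 and 0.117 with Insr. Outside the runs Irs1 stood at 0.0941 with Irs2, 0.0943 with Insr and -0.154 with Igf1 (now past). Inside them (76 mice, fewer samples) Irs1 stood at 0.277 with Irs2, 0.0614 with Insr and 0.0522 with Igf1r, Slc2a4 at -0.114 with Irs2, 0.173 with Insr and 0.332 with Igf1r, Insr at -0.243 with Igf1 and 0.23 with Igf1r, and Igf1 at -0.221 with Igf1r, none past it. Without the 7 mice Irs1 with Insr stood at 0.116 and Slc2a4 with Igf1 at -0.187 (now past). With the trend removed Irs1 stood at 0.0251 with Insr and 0.076 with Igf1r, and Irs2 at -0.128 with Slc2a4. With 5 components removed Insr with Slc2a4 reversed to -0.172 and Slc2a4 with Igf1r to -0.0499. Irs1 with Igf1r then stood at 0.0592, Insr with Igf1 at -0.136, Insr with Igf1r at 0.0837, Igf1 with Igf1r at -0.109 and Slc2a4 with Igf1 at -0.15 (now past). With the probe of largest SD Irs2 stood at 0.042 with Irs1, and past the threshold at 0.135 with Igf1 and -0.214 with Igf1r.

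Counts of followers moved as follows. With r of at least 0.4 in size they were 118 for Irs1, 501 for Irs2, 594 for Insr, 4526 for Slc2a4, 445 for Igf1 and 6255 for Igf1r. With 5 components removed they were 154 for Irs1, 616 for Irs2, 70 for Insr, 261 for Slc2a4 and 2589 for Igf1r. Irs1 had 515 in higher numbers, 1538 outside the runs and 299 with the trend removed. Irs2 had 1013 in lower and 844 in higher numbers, 5618 inside the runs, 351 with the trend removed, 2941 with the probe of largest SD, 744 with probe a and 2934 with probe b. Insr had 2286 on scaled arrays, 228 inside the runs and 1986 with the trend removed. Slc2a4 had 4662 in higher numbers. Igf1 had 2258 in lower numbers, 2587 outside and 826 inside the runs. Igf1r had 3606 with probe b. The split of rising and falling followers of Igf1, 1133 and 360 in the values as deposited, was 1021 and 152 on scaled arrays.

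The trend along the mouse number lost its call on scaled arrays for Slc2a4 (adjusted p = 0.115, limma), in lower numbers for Insr (0.112), Slc2a4 (0.0735) and Igf1r (0.382), in higher numbers for Irs2 (0.657), and with 5 components removed for Irs2 (0.262), Insr (0.795), Slc2a4 (0.459) and Igf1r (0.0976). Signal over background is unknown for every probe.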
